A study of Homo sapiens with 6 samples.

Results

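The hypoxia response genes are 10 genes that cells use to sense or answer a lack of oxygen: *HIF1A*, *EPAS1*, *VEGFA*, *CA9*, *ADM*, *BNIP3*, *NDRG1*, *ANKRD37*, *EGLN3* and *PDK1*. They were chosen by symbol, and all 10 were found among the 60651 genes counted in each library. The libraries were total RNA of a human neuroblastoma cell line, 3 titled EtOH (ethanol, the vehicle) and 3 titled Tet (tetracycline, given for 5 days). The titles name IMR575, the *MYCN*-amplified line IMR-5/75, and a tag speaks of a knockdown, with the value Control for the libraries titled EtOH and Induction for those titled Tet. The growth text instead describes SK-N-SH cells carrying a *MYCN* expression system switched on by tetracycline through the TR repressor, kept as single clones under G418-BC and Blasticidin. In the study, IMR-5/75 carried an inducible shRNA against *MYCN*. The labels therefore do not settle whether *MYCN* was to be raised or lowered, and all directions compare the titles, Tet against EtOH. No label gives an oxygen level, and none of the libraries is labelled as grown in low oxygen.

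Hypoxia-inducible factors (HIFs) are pairs of proteins that bind DNA. The alpha subunit, encoded by *HIF1A* or *EPAS1*, is marked by prolyl hydroxylases while oxygen is present and is then destroyed through the VHL ubiquitin ligase, so that it is controlled mostly as a protein rather than through its mRNA. In low oxygen it persists, joins ARNT and binds the core motif ACGTG or GCGTG near its targets. These targets include the prolyl hydroxylase *EGLN3* itself, enzymes and carriers of anaerobic glucose use, the angiogenic ligand *VEGFA* and the mitophagy receptor *BNIP3*. In neuroblastoma, HIFs and *MYCN* are both known to act on glucose metabolism.

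The core motif was looked up in the promoters of the 10 genes as background for the levels below. RefSeq promoter windows (GRCh38.p14) were held for 8 of the 10 genes, and the 250 bases before each start were searched on both strands for ACGTG and GCGTG, the palindrome CACGTG counting as 2 overlapping matches. A match was present in 43.2% of the 35116 promoters in the table, so that a single match sets no gene apart. *BNIP3* had 6 matches, a number reached by 0.646% of promoters, and *ANKRD37* had 3, reached by 7.76%. *PDK1* had 2 matches before the later of its listed starts, a number reached by 19.4% of promoters, and none before the other. *CA9*, *EPAS1* and *ADM* had 1 match each, *HIF1A* had 1 before one start and none before the other, and *EGLN3* had none. Matches are letters in a window and were not tied to any binding. The sequences of *BNIP3*, *ANKRD37* and *PDK1* are shown because these genes stood high together in 1 library, that of *EPAS1* because it stood low there, and that of *CA9* because it was almost without counts despite a match close to its start. *EGLN3*, highest in the same library, has no sequence shown because it had no match. The bases printed for *PDK1*, *ANKRD37* and *EPAS1* lie inside the annotated genes, which start at 172555373, 185396021 and 46293667. Those for *CA9* run past its annotated start at 35673918, and those for *BNIP3* lie before the start of its gene. Each sequence runs 5′ to 3′ on the gene's strand, with the matches in capitals.
*BNIP3*, minus strand, chr10:131982014-131982173: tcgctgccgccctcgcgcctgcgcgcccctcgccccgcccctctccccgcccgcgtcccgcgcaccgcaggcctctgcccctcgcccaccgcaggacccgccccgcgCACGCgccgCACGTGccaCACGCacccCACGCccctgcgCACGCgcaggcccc
*ANKRD37*, plus strand, chr4:185396591-185396810: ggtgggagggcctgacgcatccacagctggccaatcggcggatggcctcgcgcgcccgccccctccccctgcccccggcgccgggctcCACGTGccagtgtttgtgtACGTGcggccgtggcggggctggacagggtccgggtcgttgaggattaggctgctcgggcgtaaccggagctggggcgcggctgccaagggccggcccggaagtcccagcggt
*PDK1*, plus strand, chr2:172556060-172556089: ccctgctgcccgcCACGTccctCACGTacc
*EPAS1*, plus strand, chr2:46297157-46297406: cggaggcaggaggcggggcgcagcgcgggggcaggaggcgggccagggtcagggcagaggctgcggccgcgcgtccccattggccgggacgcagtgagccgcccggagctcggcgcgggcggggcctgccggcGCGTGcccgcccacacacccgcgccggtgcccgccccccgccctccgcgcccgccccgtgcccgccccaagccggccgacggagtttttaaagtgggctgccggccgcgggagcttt
*CA9*, plus strand, chr9:35673898-35673927: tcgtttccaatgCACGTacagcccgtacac

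Libraries held between 27933212 and 40497909 estimated counts, and 3 counts were worth 0.0741 to 0.107 CPM, the unit of TMM-normalised counts used for levels below. Values per library follow the order of replicates 1, 2 and 3, and p-values for single genes are from edgeR, adjusted over all genes tested. *MYCN*, the gene the system acts on, stood at 158, 256 and 156 CPM in the libraries titled EtOH and 197, 200.1 and 145 CPM in those titled Tet, a log2 fold change of -0.07 with an SE of 0.23 (adjusted p = 0.956 in edgeR). It was 0.21 without EtOH replicate 2 and 0.066 without Tet replicate 3. No difference in *MYCN* RNA was therefore detected, and the sign was not fixed. For the line named in the titles, the study reports that western blotting for the MYCN protein verified the knockdown induced by tetracycline. It also reports that circular RNAs rose globally after this induction. Whether the MYCN protein differed between the cells of these libraries was not tested. Of 8 neuroblastoma markers, 6 had a mean over 1 CPM, and the 8 summed to 621 to 681 CPM in libraries titled EtOH and 685 to 833 CPM in those titled Tet, without overlap, whereas *TH* was at 0 in 5 of 6 libraries and *DBH* reached at most 0.453 CPM. Of the 6 markers tested, 3 were higher in libraries titled Tet at an unadjusted p under 0.05, beside 10.8% of all genes tested in either direction. Groups did not overlap for 3 of the 6, beside 17.5% of all genes tested. Of these markers 0 passed the adjusted threshold, and their part in the results below was not tested. The summed endothelial markers (4 genes) ranged from 0.0661 to 0.614 CPM in libraries titled EtOH and from 0.197 to 0.302 CPM in those titled Tet, with *VWF* at 0 throughout. The 4 immune markers summed to 0.694 to 1.2 and 0.503 to 0.790 CPM, and 3 of 5 fibroblast and mesenchymal markers had a mean over 1 CPM, with sums of 57.8 to 79.2 and 76.1 to 93.2 CPM and *COL1A2* at 0. EtOH replicate 2 stood apart. On the first principal component, which held 44.7% of the variance, it scored 84.2, Tet replicate 2 scored 47.3 and the other 4 libraries scored below 0. Log2 fold changes of the hypoxia response genes are given with and without it.

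No difference between the groups was detected for any of the hypoxia response genes. Of the 10 genes, 8 had enough counts to be tested and 0 passed an adjusted p of 0.05 in edgeR, against 0.236% of the 22443 genes tested (53 genes). None of the 8 had an unadjusted p under 0.05 either. DESeq2 fitted all 10 and called 0, although genes with few counts may be left there without an adjusted p. Of the 8, 4 had a log2 fold change above 0 and 4 below, and their median was -0.02, beside -0.01 over all genes tested. Groups that did not overlap were seen for 1 of the 8 genes, *HIF1A*, beside 17.5% of all genes tested. In bulk RNA, fewer cells with a transcript and less of it per cell cannot be told apart. The labels do not say that replicates came from separate cultures, while the study describes its cell culture experiments in general as done in independent biological replicates. If these libraries were not, the p-values measure technical spread only.

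**Figure D1:**
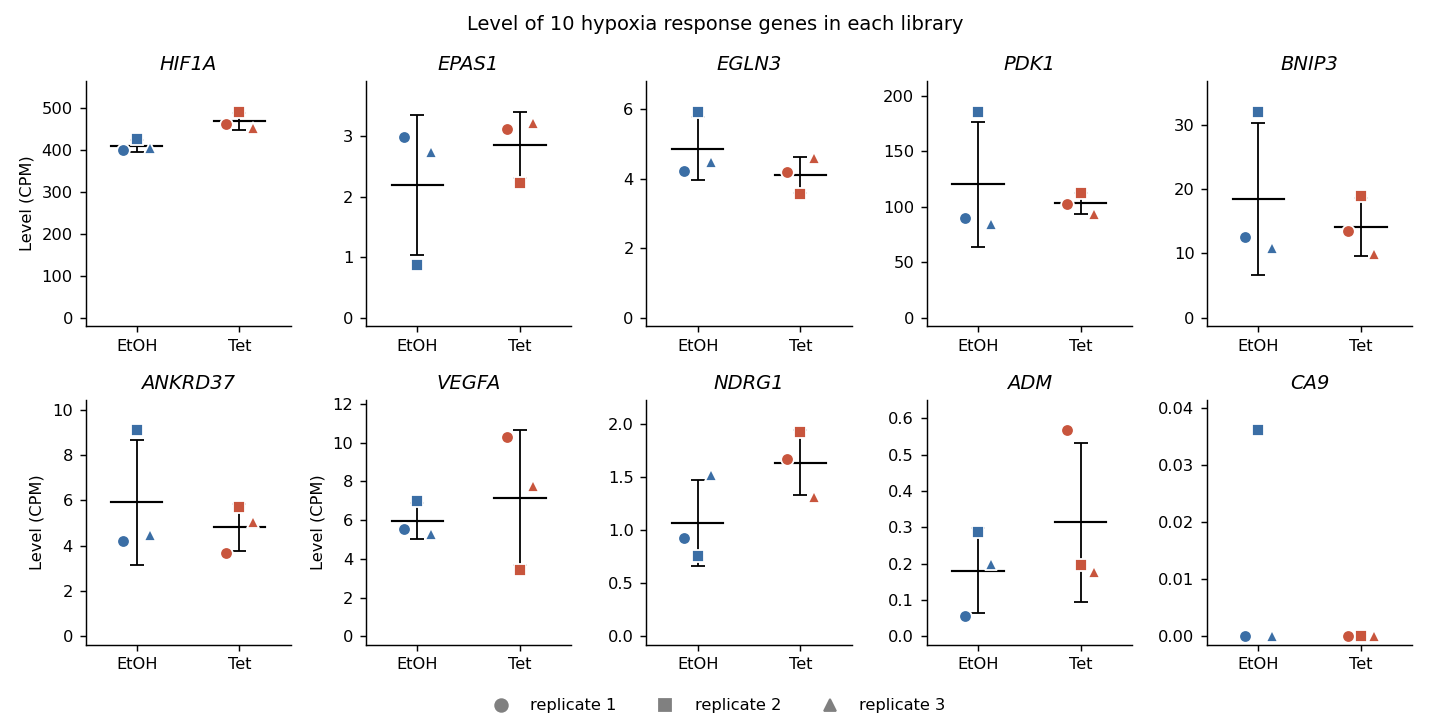
Level in CPM (TMM-normalised) of the 10 genes in each of the 6 libraries, with the group mean and SD drawn as a line and bar except for *CA9*, which had a single count. The libraries titled Tet lie above all libraries titled EtOH only for *HIF1A*, and EtOH replicate 2 (blue square) is the highest library for *PDK1*, *BNIP3*, *ANKRD37* and *EGLN3* and the lowest for *EPAS1* and *NDRG1*.

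Levels per exon length differed widely among the genes. In TPM, which divides counts by exon length before scaling each library to the same sum, averaged over the 6 libraries, *HIF1A* stood at 232 and ranked 247 of all genes, followed by *PDK1* at 20.7, *BNIP3* at 8.49, *ANKRD37* at 6.55, *EGLN3* at 1.67, *VEGFA* at 1.24, *EPAS1* at 0.932, *NDRG1* at 0.305, *ADM* at 0.295 and *CA9* at 0.0110. Exon length counts all annotated exons of a gene, from 1608 bases for *CA9* to 14845 for *PDK1*. The order therefore also depends on the annotation. G and C made up 36.4% of the longest transcript of *HIF1A*, 39.5% for *PDK1*, 42.1% for *ANKRD37*, 49.4% for *EGLN3* and 51.4% for *BNIP3*. For the remaining genes they made up 52.1% (*NDRG1*) to 59.9% (*CA9*). Whether base composition had a part in this order was not tested. The ranges over the 6 libraries separated neighbours in this order at 2 places only. *HIF1A* (209 to 259 TPM) lay above *PDK1* (15.3 to 36.9 TPM), and *ANKRD37* (4.61 to 11.9 TPM) lay above *EGLN3* (1.31 to 2.37 TPM). All other neighbours overlapped in their ranges, including *BNIP3* (4.54 to 17.7 TPM) with both *PDK1* and *ANKRD37*. Compared within each library, *PDK1* was nevertheless always above *BNIP3*, *EPAS1* above *NDRG1* and *ADM* above *CA9*. The remaining overlapping neighbours changed places in part of the libraries.

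*HIF1A* (ENSG00000100644.17, chromosome 14, 61695513 to 61748259, plus strand) encodes the alpha subunit of HIF-1. It measured 399, 426 and 403 CPM in the libraries titled EtOH and 461, 490.2 and 452 CPM in those titled Tet. All 3 libraries titled Tet were above all 3 titled EtOH. The means were 409.5 ± 14.4 and 468 ± 20.2 CPM (SD, n = 3 each), and the log2 fold change, 0.19 with an SE of 0.13, stayed short of the threshold (adjusted p = 0.685). An interval of 2 SE ran from -0.07 to 0.46, and without EtOH replicate 2 the log2 fold change was 0.23. Of its exon bases, 5.14% are shared with an overlapping gene.

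*EPAS1* (ENSG00000116016.14, chromosome 2, 46293667 to 46386697, plus strand) encodes HIF-2 alpha, which is known from cells of the sympathetic lineage. It was found at 2.99, 0.866 and 2.74 CPM in the libraries titled EtOH and 3.12, 2.23 and 3.22 CPM in those titled Tet. EtOH replicate 2 was the lowest library and held 24 counts, whereas the other 5 libraries held between 79 and 128. The log2 fold change was 0.37 with an SE of 0.45 (adjusted p = 0.845) and became -0.00017 without EtOH replicate 2. Per exon length, *EPAS1* was far below *HIF1A* in every library. The log2 ratio of their TPM was -8.24 ± 1.05 in libraries titled EtOH and -7.87 ± 0.356 in those titled Tet (SD, n = 3 each; exact two-sided permutation test, p = 0.9). The difference of these means, 0.36, was -0.24 without EtOH replicate 2.

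The partners of both subunits were present. *ARNT*, the beta subunit, had 107 ± 24.6 TPM in libraries titled EtOH and 97.6 ± 10.1 TPM in those titled Tet, and its paralog *ARNT2*, known from neurons, had 2.29 ± 0.871 and 2.25 ± 0.197 TPM (SD, n = 3 each). *HIF3A*, a further alpha subunit, had 0.522 ± 0.159 and 0.266 ± 0.106 TPM. The log2 ratio of *ARNT2* to *ARNT* was -5.61 ± 0.29 and -5.44 ± 0.08 (exact two-sided permutation test, p = 0.6). Neither *ARNT* (log2 fold change -0.08 with an SE of 0.21) nor *ARNT2* (0.02 with an SE of 0.33) passed the test.

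*EGLN3* (ENSG00000129521.15, chromosome 14, 33924227 to 34462774, minus strand) encodes the prolyl hydroxylase PHD3, at once a sensor and a target of the pathway. It reached 4.21, 5.92 and 4.46 CPM in the libraries titled EtOH and 4.18, 3.55 and 4.58 CPM in those titled Tet. EtOH replicate 2 was the highest library and Tet replicate 2 the lowest, and the others lay within 4.18 and 4.58 CPM. The log2 fold change was -0.24 with an SE of 0.25 (adjusted p = 0.816), and it was -0.07 without EtOH replicate 2. Of the 3 prolyl hydroxylase genes, *EGLN1*, the main oxygen sensor in most cells, made up most of the TPM. *EGLN3* took 12.6%, 9.12% and 12.6% of the summed TPM of *EGLN1*, *EGLN2* and *EGLN3* in EtOH replicates 1, 2 and 3, and 11.5%, 8.10% and 13.8% in Tet replicates 1, 2 and 3. The share was 11.4% ± 2.00 against 11.1% ± 2.85 (SD, n = 3 each; exact two-sided permutation test, p = 1). Other genes cover 55.8% of the exon bases of *EGLN1*, so that its level is uncertain.

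*PDK1* (ENSG00000152256.14, chromosome 2, 172555373 to 172608669, plus strand) encodes a kinase that holds back pyruvate dehydrogenase and thereby the entry of pyruvate into mitochondrial respiration. Its normalised level was 89.7, 185 and 84.8 CPM in the libraries titled EtOH and 102.7, 112.7 and 93.2 CPM in those titled Tet. EtOH replicate 2 was above all other libraries, and the other EtOH libraries were below all Tet libraries. The log2 fold change was -0.22 with an SE of 0.29 (adjusted p = 0.862) over all 6 libraries and 0.24 without EtOH replicate 2 (adjusted p = 0.358).

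Among the 4 pyruvate dehydrogenase kinases, *PDK1* and *PDK3* supplied nearly all transcripts. *PDK1* had 22.9 ± 12.1 TPM in libraries titled EtOH and 18.5 ± 2.82 TPM in those titled Tet, and *PDK3* had 19.8 ± 5.98 and 18.0 ± 4.84 TPM (SD, n = 3 each). *PDK2* stood at 0.608 ± 0.127 and 0.534 ± 0.184 TPM, and *PDK4* had no count in any library. The share of *PDK1* in the TPM of the family was 49.4%, 57.6% and 47.1% in EtOH replicates 1, 2 and 3, and 50.4%, 47.4% and 53.3% in Tet replicates 1, 2 and 3 (exact two-sided permutation test, p = 0.9). *PDK3* was also highest in EtOH replicate 2, at 122 CPM against 79.9 and 83.6 CPM in the other EtOH libraries.

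*BNIP3* (ENSG00000176171.11, chromosome 10, 131966455 to 131982013, minus strand) encodes a receptor on mitochondria that marks them for mitophagy. It was measured at 12.5, 32.0 and 10.8 CPM in the libraries titled EtOH and 13.5, 18.9 and 9.92 CPM in those titled Tet. The libraries numbered 2 were the highest of their group, and the groups overlapped. The log2 fold change was -0.39 with an SE of 0.42 (adjusted p = 0.826), and it was 0.28 without EtOH replicate 2 (adjusted p = 0.601). The annotation lists 44 pseudogenes named for *BNIP3*, and reads that align to more than 1 place were not counted, so that its level is uncertain. The paralog *BNIP3L* was far more abundant, at 270.1 ± 101 TPM in libraries titled EtOH and 273 ± 14.2 TPM in those titled Tet (SD, n = 3 each), against 9.87 ± 6.82 and 7.11 ± 2.56 TPM for *BNIP3*. The log2 ratio of *BNIP3* to *BNIP3L* was -4.96, -4.44 and -5.36 in EtOH replicates 1, 2 and 3, and -5.18, -4.89 and -5.92 in Tet replicates 1, 2 and 3 (exact two-sided permutation test, p = 0.5).

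**Figure D2:**
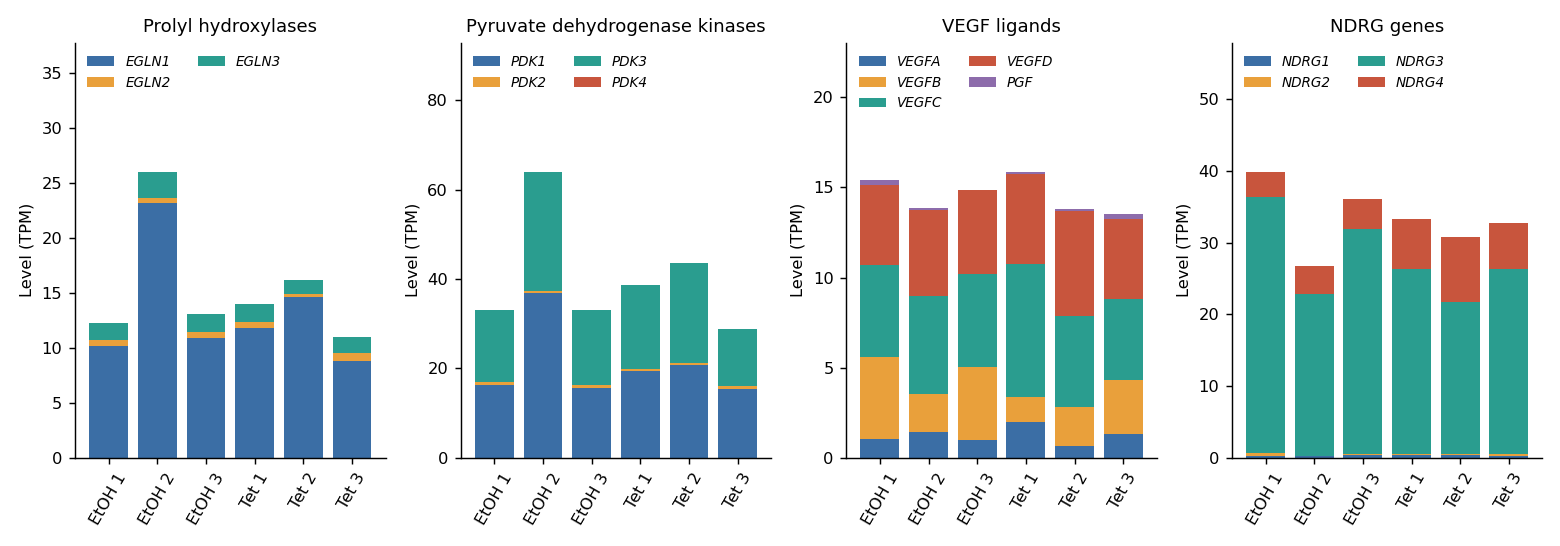
Level in TPM, stacked by gene, of the prolyl hydroxylases, the pyruvate dehydrogenase kinases, the VEGF ligands and the NDRG genes in each of the 6 libraries. *EGLN1* fills most of the hydroxylase bars and *PDK1* and *PDK3* nearly all of the kinase bars, both highest in EtOH replicate 2, whereas *VEGFA* and *NDRG1* are small parts of their families.

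*ANKRD37* (ENSG00000186352.9, chromosome 4, 185396021 to 185400628, plus strand) encodes a small ankyrin repeat protein known as a HIF-1 target. It stood at 4.18, 9.09 and 4.46 CPM in the libraries titled EtOH and 3.69, 5.70 and 5.06 CPM in those titled Tet. EtOH replicate 2 was the highest library, and the groups overlapped. The log2 fold change was -0.29 with an SE of 0.35 (adjusted p = 0.844), and it was 0.16 without EtOH replicate 2 (adjusted p = 0.772). Other genes, mainly *UFSP2*, cover 40.3% of its exon bases, and since strand was not used in counting, its reads cannot be separated from those of that neighbour.

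*VEGFA* (ENSG00000112715.25, chromosome 6, 43770184 to 43786487, plus strand) encodes the main ligand that drives growth of blood vessels. Its values were 5.52, 6.997 and 5.29 CPM in the libraries titled EtOH and 10.3, 3.41 and 7.78 CPM in those titled Tet. The libraries titled Tet held both the highest and the lowest values, with an SD of 3.48 CPM against 0.926 CPM in libraries titled EtOH. The log2 fold change was 0.27 with an SE of 0.38 (adjusted p = 0.874), and it was 0.40 without EtOH replicate 2 and -0.10 without Tet replicate 1. Without both libraries numbered 2 it was 0.74 (adjusted p = 0.108), an alternative chosen after the data were seen. The annotated exons of *VEGFA* together hold 14431 bases, and its TPM and its share below depend on that length. In TPM, *VEGFA* was not the leading ligand of its family. It took 6.70%, 10.3% and 6.71% of the TPM of the VEGF ligands in EtOH replicates 1, 2 and 3, and 12.6%, 4.67% and 9.71% in Tet replicates 1, 2 and 3 (exact two-sided permutation test, p = 0.7). *VEGFC*, a lymphatic ligand, had 5.24 ± 0.168 and 5.64 ± 1.52 TPM, and *VEGFD* had 4.62 ± 0.17 and 5.09 ± 0.703 TPM (SD, n = 3 each), against 1.154 ± 0.242 and 1.32 ± 0.683 TPM for *VEGFA*.

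The receptor kinases for these ligands were at or near the limit of detection. *FLT1*, *KDR* and *FLT4* had between 0.028 and 0.302 CPM in any library. The co-receptors *NRP1* and *NRP2*, which also guide axons, were well above that level. *NRP2* had 25.1 to 32.1 CPM over the 6 libraries. *NRP1* had 8.15, 18.0 and 8.50 CPM in the libraries titled EtOH and 29.6, 82.1 and 35.6 CPM in those titled Tet. All 3 libraries titled Tet were above all 3 titled EtOH, but the log2 fold change, 2.09 with an SE of 0.45, stayed short of the threshold (adjusted p = 0.129).

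*ADM* (ENSG00000148926.10, chromosome 11, 10305073 to 10307397, plus strand) encodes adrenomedullin, a peptide that widens blood vessels. It had 2, 8 and 6 counts in EtOH replicates 1, 2 and 3, and 16, 7 and 7 in Tet replicates 1, 2 and 3. With 0.0558 to 0.567 CPM it was too low for the test, and the groups overlapped. Its receptor *CALCRL* had 0.613 to 1.17 CPM, and the partner proteins that tune this receptor, *RAMP1*, *RAMP2* and *RAMP3*, reached at most 0.503, 0.354 and 0 CPM. *CA9* (ENSG00000107159.13, chromosome 9, 35673918 to 35681159, plus strand) encodes a carbonic anhydrase of the cell surface that is among the most used markers of hypoxia in tumours. It had 1 count in EtOH replicate 2 and 0 in the other 5 libraries. A count of 0 allows a level of up to 0.0741 to 0.107 CPM, depending on the library, counting error only. Other genes, mainly *ARHGEF39*, cover 36.1% of its exon bases. Other carbonic anhydrases were measured at higher levels, *CA12* at 0.903 ± 0.23 and 0.679 ± 0.052 TPM and *CA14* at 4.80 ± 2.31 and 2.71 ± 1.02 TPM in libraries titled EtOH and Tet (SD, n = 3 each).

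*NDRG1* (ENSG00000104419.17, chromosome 8, 133237175 to 133302022, minus strand) is named as a gene downregulated by *MYCN* (N-myc) and is also induced by hypoxia and by loss of iron. It held 0.921, 0.757 and 1.52 CPM in the libraries titled EtOH and 1.67, 1.92 and 1.31 CPM in those titled Tet. EtOH replicate 3 lay above Tet replicate 3, so that the groups overlapped. With 21 to 68 counts per library, the log2 fold change, 0.61 with an SE of 0.38, was the largest among the 8 genes and stayed short of the threshold (adjusted p = 0.640), and its interval of 2 SE ran from -0.15 to 1.37. It was 0.43 without EtOH replicate 2 and 0.93 without EtOH replicate 3. Without both libraries numbered 2, an alternative chosen after the data were seen, it was 0.29. Of the NDRG family, *NDRG1* took 0.724% ± 0.22 of the TPM in libraries titled EtOH and 1.13% ± 0.302 in those titled Tet (SD, n = 3 each; exact two-sided permutation test, p = 0.2). *NDRG3* led the family with 29.8 ± 6.71 and 24.3 ± 2.63 TPM. *NDRG4*, known from the nervous system, had 12.9, 12.7 and 14.9 CPM in the libraries titled EtOH and 23.6, 32.4 and 25.7 CPM in those titled Tet, with no overlap between the groups (log2 fold change 1.01 with an SE of 0.19, adjusted p = 0.082). Over the 7 ratios within families that were tested, the adjusted p was 1 for each, and an exact test of 3 libraries against 3 cannot go below p = 0.1.

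**Figure D3:**
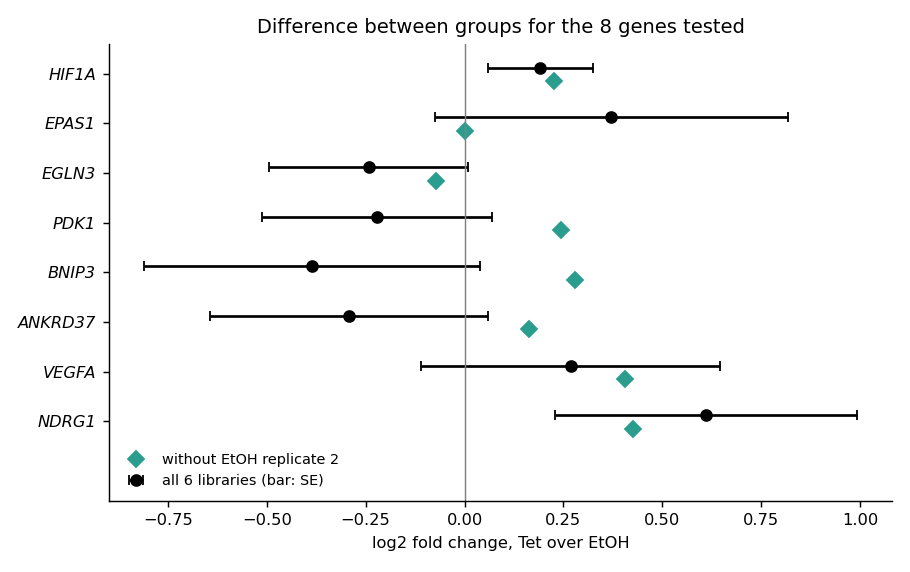
Log2 fold change, Tet over EtOH, of the 8 genes tested, with all 6 libraries (black circles, bars show 1 SE) and without EtOH replicate 2 (green diamonds). *BNIP3*, *PDK1* and *ANKRD37* move from below 0 to 0.28, 0.24 and 0.16, and *EPAS1* moves to -0.00017.

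For several of these genes, EtOH replicate 2 lay farther from the other EtOH libraries than the groups lay from each other. The level in EtOH replicate 2, divided by the mean of EtOH replicates 1 and 3, was 2.74 for *BNIP3*, 2.12 for *PDK1*, 2.10 for *ANKRD37*, 1.36 for *EGLN3*, 1.29 for *VEGFA*, 1.06 for *HIF1A*, 0.620 for *NDRG1* and 0.302 for *EPAS1*. It exceeded 1.5 for 3 of the 8 genes tested (37.5%), beside 20.1% of all genes tested. EtOH replicate 2 was the highest of the 6 libraries for 4 of the 8, beside 24.8% of all genes tested. In Tet replicate 2, the same ratio to the other Tet libraries was 1.62 for *BNIP3*, 1.30 for *ANKRD37* and 1.151 for *PDK1*, 0.703 for *EPAS1* and 0.378 for *VEGFA*. *HIF1A* differed little between replicates of a group, with a ratio of 1.07 in Tet replicate 2. The median log2 fold change of the 8 genes was 0.23 without EtOH replicate 2, beside 0.02 over all genes tested in that fit, and 0 of the 8 passed the test.

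The rest of the pathway went both ways in this library. Over the 77 pathway genes tested, 19 (24.7%) exceeded 1.5 times the other EtOH libraries in EtOH replicate 2, beside 20.1% of all genes tested, and the median ratio was 0.964, beside 0.965 over all genes. The count was 11 of 28 for other HIF targets (median ratio 1.25), 5 of 20 for targets of glucose metabolism (median 0.819), 3 of 16 for oxygen sensing and HIF machinery (median 0.955) and 3 of 18 for receptors and relatives (median 0.940). Chosen after their values were seen, *TFRC*, the transferrin receptor, stood at 2.37 and the hexokinase *HK2* at 2.33 times the mean of EtOH replicates 1 and 3, whereas the neuronal enolase *ENO2* stood at 0.235 and the hexokinase *HK1* at 0.343.

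Base composition moved with this library. Over all genes tested, split into 4 equal bins by the GC content of the longest transcript, the median ratio in EtOH replicate 2 was 1.28, 1.02, 0.820 and 0.720 from the lowest to the highest bin, and in Tet replicate 2 it was 1.12, 0.990, 0.902 and 0.735. *PDK1*, with 39.5% GC, was in the lowest bin with *HIF1A* (36.4%), and *ANKRD37* (42.1%) was in the next. *BNIP3*, with 51.4% GC, was in the highest bin and stood at 2.74 where the bin's median was below 1, as did *VEGFA* (54.6% GC) at 1.29. *EPAS1* (52.6%) and *NDRG1* (52.1%), also in the highest bin, lay below its median. The share of counts from the mitochondrial genome was 4.12% in EtOH replicate 2 and 5.86% in Tet replicate 2, and ranged from 6.82% to 10.01% in the other libraries. Whether base composition or the mitochondrial share had a part in the levels of the hypoxia response genes was not tested.

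**Figure D4:**
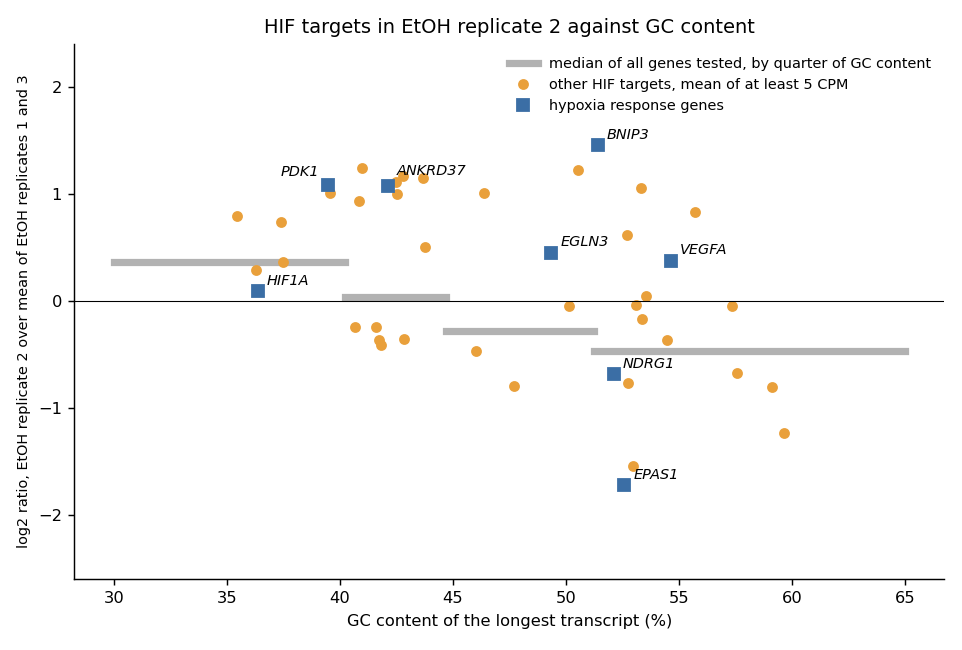
Log2 ratio of the level in EtOH replicate 2 to the mean of EtOH replicates 1 and 3, against the GC content of the longest transcript in percent, for the hypoxia response genes (blue squares) and other HIF targets with a mean of at least 5 CPM (orange circles), with the median of all genes tested in each of 4 bins of GC content (grey bars). The grey bars step down with GC content, *PDK1* and *ANKRD37* lie above them at low GC content, *BNIP3* lies above them at high GC content and *EPAS1* lies below.

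The rest of the pathway was read from 4 lists with 97 genes, of which 77 were tested and 0 passed the test in edgeR, with 12 at an unadjusted p under 0.05 (7 higher and 5 lower in libraries titled Tet), beside 10.8% of all genes tested. The median log2 fold change over the 77 genes was -0.01, as it was over all genes tested. Of the 16 genes of oxygen sensing and HIF machinery, all were tested and 1 had an unadjusted p under 0.05, the coactivator *CREBBP* (log2 fold change 0.49 with an SE of 0.19, adjusted p = 0.394). The coactivator *EP300* had a log2 fold change of 0.23, *HIF1AN*, which hydroxylates an asparagine of the alpha subunit, -0.32 (adjusted p = 0.795), and the ubiquitin ligase *SIAH2* -0.28. *HIF1AN* depended on single libraries, with -0.052 without EtOH replicate 1 and -0.63 without EtOH replicate 2. *SIAH2* was -0.13 and *CREBBP* 0.28 without Tet replicate 2. *VHL*, which receives the hydroxylated alpha subunit, had 31.9 ± 3.28 and 30.5 ± 2.03 TPM in libraries titled EtOH and Tet (SD, n = 3 each).

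Of the HIF targets of glucose metabolism, 20 of 23 were tested and 2 had an unadjusted p under 0.05. *LDHA*, the lactate dehydrogenase subunit that turns pyruvate into lactate, had 106, 78.3 and 102.5 CPM in the libraries titled EtOH and 51.0, 45.9 and 50.8 CPM in those titled Tet. All 3 libraries titled Tet were below all 3 titled EtOH, and the log2 fold change, -0.96 with an SE of 0.16, stayed short of the threshold (adjusted p = 0.069). *GBE1*, a glycogen branching enzyme, had a log2 fold change of 0.47 (adjusted p = 0.426), *HK2* 0.54 (adjusted p = 0.618) and the glycolytic enzyme *ENO1* -0.38 (adjusted p = 0.707). *HK2* was 1.07 without EtOH replicate 2 (adjusted p = 0.011) and 0.30 without EtOH replicate 1, and *ENO1* was -0.58 without EtOH replicate 2 and -0.040 without EtOH replicate 1.

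Of the other HIF targets, 28 of 35 were tested and 6 had an unadjusted p under 0.05, 3 in each direction, to be read against the same 10.8% over all genes. The mitochondrial adenylate kinase *AK4* had a log2 fold change of -1.10 (adjusted p = 0.207), the collagen cross-linking enzyme *LOX* -0.89 (adjusted p = 0.350), the hormone *STC1* 1.02 (adjusted p = 0.343) and *DDIT4*, an inhibitor of mTOR signalling, 0.60 (adjusted p = 0.791). Without EtOH replicate 2 these were -0.69, -0.47, 1.52 and 0.30, and *DDIT4* was 0.027 without Tet replicate 3 and 1.03 without Tet replicate 2. Of 28 receptors and relatives of the 10 genes, 18 were tested and 3 had an unadjusted p under 0.05, namely *NRP1*, *NDRG4* and *PDP2*, a phosphatase that opposes the PDK kinases (log2 fold change -0.58, adjusted p = 0.194). The calls for these lists depended on the fit. Without EtOH replicate 2, 6 of 80 genes passed the test, beside 2.89% of all genes tested in that fit, 5 higher (*HK2*, *KDM3A*, *NDRG4*, *NRP1*, *STC1*) and 1 lower (*LDHA*). DESeq2 called 4 of 92, beside 1.2% of all genes fitted, with *NRP1* and *NDRG4* higher and *LDHA* and *AK4* lower. None of the 10 hypoxia response genes was called in either.

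Among genes with a mean of at least 5 CPM, the pattern over the 6 libraries most like that of *HIF1A* was that of *CDH2*, *CLINT1* and *KDM2A*, with a root mean square difference of centred log2 CPM of 0.0234, 0.0308 and 0.0340. For *EPAS1* the nearest were *RPS3AP38*, *ZNF419* and *NCAN* (0.0533, 0.0737 and 0.0978), of which *RPS3AP38* is a pseudogene and uncertain. For *VEGFA* they were ENSG00000273906, *ULBP1* and ENSG00000286670 (0.204, 0.226 and 0.226). The other hypoxia response genes tested lay between 0.282 (*EGLN3*) and 0.640 (*EPAS1*) from *HIF1A*. The genes nearest *HIF1A* were picked as the closest of 10088 candidates, so that greater distances of other genes show little. The root mean square of a gene's own centred values was 0.106 for *HIF1A* and 0.636 for *EPAS1*. These are descriptions over 6 libraries that share the pattern of EtOH replicate 2.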

How the data were processed

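Ribosomal RNA was depleted from total RNA before stranded, paired-end sequencing of 6 libraries. Each library had its own deposited table of unscaled estimated counts. According to the headers of the tables, the authors used Trim Galore for trimming, STAR for alignment and featureCounts 1.6.4 for counting of unique alignments in exons, dividing pairs among overlapping genes and ignoring strand. The submitters' processing notes name STAR 2.7.1a and featureCounts 1.5.1, and the study's methods describe strand-aware options. The description in the headers was followed, by which reads of overlapping and antisense genes cannot be told apart. The build was GRCh38.

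Estimated counts were rounded, since the planned test assumed whole counts. Between 12.3% and 14.7% of values were not whole. Spike-ins (92) had no counts and were left out. Genes were filtered with filterByExpr, scaled by TMM and tested in edgeR 4.0.16 (R 4.3.3) by quasi-likelihood F tests, libraries titled Tet against EtOH, with Benjamini-Hochberg adjustment over all genes tested and a threshold of 0.05. The SE is the size of the log2 fold change divided by the square root of F. CPM uses the scaled library sizes of that fit, and TPM was computed from counts and exon length. Replicates differed beyond sampling noise (chi-square per degree of freedom 11.4 to 147.3) and were each counted. Ratios within families were compared by exact two-sided permutation tests. Symbols were matched for 99.7% of identifiers, and GC content (GENCODE 44) for 99.7% of genes tested.

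On simulated counts the fit recovered 23.5% of 200 altered genes at a log2 fold change of 1 (21877 genes tested) and 85.5% of those at 2 (21827 genes tested). Of the genes called there, 4.08% and 7.57% had not been altered. Altered genes had a mean of at least 1 CPM. Counts were drawn independently, with a spread following the trend over all genes and without the shift of EtOH replicate 2. Recovery in the real libraries may therefore differ. Differences smaller than those simulated, as most of those reported here, could go undetected. The 10 genes, the lists and the rules were chosen with earlier results of these data known. Named from each list were the genes past the threshold, or else, at a mean of at least 5 CPM, the 2 genes with the highest and the 2 with the lowest log2 fold change, together with the receptors and relatives of the 10 genes. Alternatives were other scalings (RLE, upper quartile), no filter, a minimum of 10 counts, DESeq2 1.42.0, voom of limma 3.58.1, leaving out each library, and a replicate block.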

Additional observations from a re-analysis of the deposited data

How the results depend on the processing

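Under every alternative run, 0 of the hypoxia response genes passed the threshold, and no unadjusted p was under 0.05 except for 1 gene without both libraries numbered 2, an alternative chosen after the data were seen. Over all genes, 53 passed in the fit reported. There were 302 without a filter, 485 with DESeq2, 675 with a replicate block, 874 without both libraries numbered 2, and 0 to 692 when 1 library was left out, with 692 without EtOH replicate 2 and at most 2 without any other. For the pathway lists, 0 of 77 genes passed in the fit reported, beside 53 of 22443 over all genes. Without a filter 4 of 92 passed, beside 302 of 40467, and with DESeq2 4 of 92, beside 485 of 40467. With a replicate block 8 of 77 passed, beside 675 of 22443 (*AK4*, *FAM162A*, *LDHA*, *LOX*, *PDP2* lower, *NDRG4*, *NRP1*, *STC1* higher). Without both libraries numbered 2, 8 of 80 passed, beside 874 of 23156. When 1 library was left out, 0 to 6 passed, with 6 of 80 without EtOH replicate 2, beside 692 of 23935. *FAM162A* and *KDM3A* were named after their values were seen. The fit reported did not take the replicate numbers as pairs, as planned, since the labels give only the 2 groups. Deviations of same-numbered libraries correlated at 0.0603, 0.510 and 0.219 for numbers 1, 2 and 3, all above 0. Whether same-numbered libraries shared a batch was not tested, and the counts of genes passing depended on this choice.

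Of 350 values that named genes took under the alternatives, 310 stayed in the same direction and on the same side of the threshold, 26 moved past it and 14 changed direction. When 1 library, or both libraries numbered 2, were left out, log2 fold changes ranged from -0.51 to 0.16 (*ANKRD37*), -0.68 to 0.28 (*BNIP3*), -0.46 to 0.18 (*EGLN1*), -0.36 to 0.021 (*EGLN3*), -0.00017 to 0.64 (*EPAS1*), -0.22 to 0.21 (*MYCN*), -0.45 to 0.24 (*PDK1*) and -0.10 to 0.74 (*VEGFA*). The upper end, for *EPAS1* the lower end, came without EtOH replicate 2, except for *EGLN3* and *VEGFA*, where it came without both libraries numbered 2. *VEGFA* was below 0 without Tet replicate 1. Without both libraries numbered 2, values above 0 were also 0.026 (*ANKRD37*), 0.0036 (*BNIP3*), 0.0056 (*EGLN1*), 0.13 (*MYCN*) and 0.17 (*PDK1*), and *MYCN* was 0.066 without Tet replicate 3. The difference Tet minus EtOH ranged from -0.24 to 0.70 for the log2 ratio of *EPAS1* to *HIF1A*, and, in percentage points, from -3.13 to 2.12 for the *PDK1* share, from -1.64 to 1.19 for the *EGLN3* share and from -0.726 to 3.26 for the *VEGFA* share. The cause was not tested. *ADM* and *CA9* were limited by their counts.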
